A study of Mus musculus with 6 samples.

Results

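The genes described here are 10 transcriptional regulators of the somite and the dermomyotome, namely Dmrt2, Sim2, Meox1, Meox2, Tcf15, Pax3, Foxc1, Foxc2, Myf5 and Eya1, out of 54134 genes in a table of read counts. They were taken by gene symbol, and the list was selected with the values of these same libraries known, including the contrast between the groups. Their differences between the groups are therefore given as a description, without a p. RNA was sequenced from the tailbud of C57BL/6 mouse embryos at E10.5, with 4 wildtype libraries and 2 Cdx2P:Nr6a1 libraries, each made from a single embryo. Cdx2P:Nr6a1 embryos carried the coding sequence of the long isoform of Nr6a1, a nuclear receptor gene, under the Cdx2P promoter. They were transient transgenics from pronuclear injection, so each transgenic embryo was its own integration event and none came from a stable line. The wildtype libraries came from embryos that were negative for the transgene. The contrast addresses what sustained Nr6a1 expression does in a tissue from which Nr6a1 is normally cleared by this stage.

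Somites are blocks of paraxial mesoderm that bud off in sequence from the presomitic mesoderm, the tissue that the tailbud feeds. Each new somite becomes an epithelial ball, and its dorsal part then forms the dermomyotome, the sheet that gives rise to skeletal muscle and dermis. Tcf15 and the Meox genes act in making and keeping the epithelial somite, the Foxc genes in paraxial mesoderm identity, and Pax3, Dmrt2, Sim2, Eya1 and Myf5 in the dermomyotome and the muscle lineage.

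Library totals lay between 44073460 and 67183802 counts, and levels are given as CPM, the counts scaled to a library total of 1000000. Nr6a1 itself was at 3.91, 5.18, 5.53 and 6.89 CPM in the wildtype libraries and at 23.4 and 33.8 CPM in the Cdx2P:Nr6a1 libraries, where counts from the transgene and from the endogenous gene cannot be told apart. Transcripts of Y-linked genes were present in wildtype replicate 3 and Cdx2P:Nr6a1 replicate 2 and near 0 in the other 4 libraries. Over all genes, 12733 passed a filter on low values, which asked for more than 10 counts and more than 2 CPM in 2 libraries. At a false discovery rate (FDR) under 0.05, edgeR's quasi-likelihood test called 203 of them (1.59%), 100 higher and 103 lower (0.809%) in Cdx2P:Nr6a1. For 1080 genes (8.48%) every wildtype library was above both transgenic ones. The p-values rest on the spread between single embryos, of which only 2 carried the transgene.

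The tissue was dissected caudal to the last somite, and the libraries held early genes of the lineage while several later ones were near 0. Tbx6 and Msgn1, which mark presomitic mesoderm, were at means of 249 and 228 CPM in wildtype. In the Cdx2P:Nr6a1 libraries Tbx6 was at 212 and 206 CPM, below its wildtype range of 234 to 273 CPM, and Msgn1 was at 139 and 200.5 CPM against 182 to 265 CPM. Their log2 fold changes were -0.26 ± 0.06 and -0.43 ± 0.17 (SE), neither was called, and their part in the levels of the members was not tested. Several genes of the forming segment boundary and of differentiating somites were at or near 0, but others were not. Mesp2 had at most 5 counts in a wildtype library, Ripply1 and Tbx18 at most 1, and Myod1, the muscle determination gene, at most 4. En1 had 0 counts in all 6 libraries, which allows up to 3.69 counts in each (upper end of the exact Poisson 95% interval), and Lbx1 had at most 2 in any library. Among those that were present, Epha4 of the segment boundary was at a mean of 301 CPM in wildtype and Lfng at 44.7 to 241 CPM. Pax9, a sclerotome gene, had 210 to 450 counts in wildtype. The members themselves ranged in the wildtype libraries from 2668 to 3398 counts for Pax3 down to 0 to 5 counts for Meox2. In bulk tissue such as this, fewer cells that express a gene and less RNA per cell cannot be told apart.

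Dmrt2 and Sim2 were lower in both Cdx2P:Nr6a1 libraries than in any wildtype library, and they were the only members that the test called. The other 8 were not called or were too low to test. Of the 10 members, 8 passed the filter, and 2 of these 8 were called, against 1.59% of all genes tested in either direction and 0.809% lower. Because the list was selected on this contrast, nothing is read from that count. The median log2 fold change of the 8 tested members was -0.144, beside -0.001 for all genes tested. Sim2 passed the filter through its wildtype libraries alone.

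Dmrt2 encodes a zinc-finger factor of the DM-domain family that is expressed in presomitic mesoderm, somites and dermomyotome and acts upstream of Myf5. The gene lies at chr19:25672420-25679010 on the plus strand (mm10). Its levels in the wildtype libraries were 9.07, 8.06, 5.22 and 6.74 CPM (446, 450, 292 and 303 counts). In the Cdx2P:Nr6a1 libraries they were 1.79 and 3.07 CPM (79 and 206 counts). The groups did not overlap, although the 2 transgenic embryos were themselves unequal and the wildtype embryos varied with a coefficient of variation of 22.9%. The mean fell from 7.27 ± 1.67 CPM (SD, n = 4) to 2.43 ± 0.901 CPM (SD, n = 2), a ratio of 0.334, and the fitted log2 fold change was -1.56 ± 0.27 (SE). Of the 12733 genes tested, 3 had a lower log2 fold change. The exact Poisson 95% intervals of the counts, which cover counting error only, were 62.5 to 98.5 for Cdx2P:Nr6a1 replicate 1 and 179 to 236 for replicate 2. These intervals remained apart when scaled to the library totals, so the gap between the transgenic embryos was larger than counting error.

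Reads of Dmrt2 can be told from those of its chromosomal neighbour and relative Dmrt3. That gene had at most 2 counts in any library, and the longest run of identical bases between the coding sequences of Dmrt2 and Dmrt3 was 17 bases, far shorter than a read. The run is printed here in capitals with 10 bases on either side, to show the best match that a read could have. It lies in exon 2 of Dmrt2 (chr19:25673854-25673870, plus strand) and exon 1 of Dmrt3 (chr19:25610919-25610935, plus strand) in the GENCODE annotation of GRCm38.
Dmrt2: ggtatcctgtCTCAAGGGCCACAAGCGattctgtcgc
Dmrt3: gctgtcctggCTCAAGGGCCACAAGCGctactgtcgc
Dmrt2 is the called member for which RefSeq sequence before the start of the gene was at hand, and those 250 bases (GRCm38.p6, chr19:25672161-25672410, plus strand) are printed as the stretch in which motifs were searched.
Dmrt2 upstream: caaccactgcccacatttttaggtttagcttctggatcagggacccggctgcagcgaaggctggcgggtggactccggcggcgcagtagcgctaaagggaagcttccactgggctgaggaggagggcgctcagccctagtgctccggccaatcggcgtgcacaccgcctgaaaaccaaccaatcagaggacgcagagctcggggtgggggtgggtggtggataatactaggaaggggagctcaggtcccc
The stretch was 62.4% G and C, beside a median of 52.4% over 32851 such sequences. The nuclear receptor half-site AGGTCA was not in it on either strand, nor was the longer form TCAAGGTCA that contains it and that Nr6a1 is known to bind. These letters stood in 14% and 0.387% of all the upstream sequences. The T-box half-site GGTGTGA (3.33%) and the E-box CAGCTG (13%) were not in it either. Sequences were matched for 4 of the 10 members (Dmrt2, Myf5, Meox2 and Foxc1), and 0 of these 4 held any of the 4 motifs.

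Sim2 encodes a bHLH-PAS transcription factor related to single-minded of Drosophila. The gene lies at chr16:94084931-94127032 on the plus strand. Its levels in the wildtype libraries were 4.05, 3.26, 2.74 and 2.60 CPM (199, 182, 153 and 117 counts). In the Cdx2P:Nr6a1 libraries they were 0.408 and 0.417 CPM (18 and 28 counts). The groups were far apart, and the 2 transgenic embryos stood at almost the same low level. The mean was 3.16 ± 0.656 CPM (SD, n = 4) in wildtype and 0.413 ± 0.0059 CPM (SD, n = 2) in Cdx2P:Nr6a1, a level 7.66-fold higher in wildtype. The fitted log2 fold change of -2.93 ± 0.27 (SE) was the lowest of the 12733 genes tested. Sim2 transcripts were still detected in both transgenic libraries, with exact Poisson 95% intervals of 10.7 to 28.4 and 18.6 to 40.5 counts. Counting error alone would therefore allow the transgenic level to vary considerably more than the SD of 2 libraries shows.

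Sim1, the paralog of Sim2, was a low gene with 6 to 14 counts in the wildtype libraries and 4 and 29 counts in the Cdx2P:Nr6a1 libraries. The longest run that the coding sequences of Sim1 and Sim2 share was 26 bases. It is printed in capitals for the same reason as above, from exon 7 of Sim2 (chr16:94114984-94115009, plus strand) and exon 7 of Sim1 (chr10:50909857-50909882, plus strand).
Sim2: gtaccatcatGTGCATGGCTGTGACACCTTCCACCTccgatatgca
Sim1: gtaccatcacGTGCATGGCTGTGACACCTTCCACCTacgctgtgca
The gene next to Sim2 that passed the filter, Hlcs, which encodes a biotin ligase and lies 1850 bases away, was at 30.7 ± 2.08 CPM (SD, n = 4) in wildtype and at 29.95 and 28.04 CPM in Cdx2P:Nr6a1. Its log2 fold change was -0.09 ± 0.07 (SE) and it was not called. Within 100 kb of any member 8 other genes were tested and 0 were called by the quasi-likelihood test, the other tests of edgeR, DESeq2 or limma voom, while 2 had an unadjusted p under 0.05 in the quasi-likelihood test. No gene within that distance of Dmrt2 passed the filter.

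**Figure D1:**
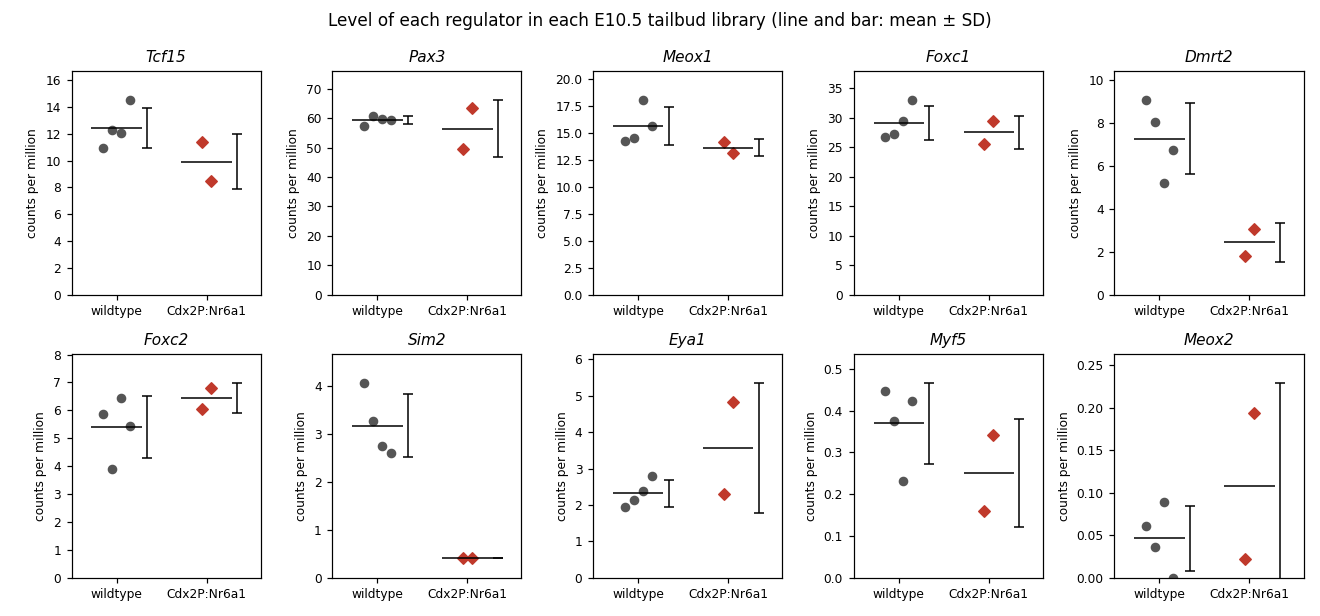
Level of each of the 10 regulators in CPM (vertical axis, from 0, scaled per gene) in the 4 wildtype libraries (grey circles) and the 2 Cdx2P:Nr6a1 libraries (red diamonds), with the mean as a line and the SD as a bar. Dmrt2 and Sim2 have transgenic values well below every wildtype value, whereas Meox1 lies just below and the other 7 genes overlap.

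Tcf15 and Meox1, the regulators of the epithelial somite, were well expressed and were not called. Tcf15, which encodes the bHLH factor paraxis that somites need to become epithelial (chr2:152143561-152149097, plus strand), was at 10.98, 12.3, 12.04 and 14.5 CPM in wildtype and at 11.4 and 8.50 CPM in Cdx2P:Nr6a1. The groups overlapped through Cdx2P:Nr6a1 replicate 1, and only replicate 2 lay below every wildtype library. The log2 fold change of Tcf15 was -0.34 ± 0.14 (SE). Meox1, a homeobox gene of the whole early somite (chr11:101877510-101894374, minus strand), was at 14.22, 14.5, 18.0 and 15.7 CPM in wildtype and at 14.18 and 13.1 CPM in Cdx2P:Nr6a1. Both transgenic values were under the lowest wildtype value, the nearer of them only just, and the log2 fold change was -0.20 ± 0.11 (SE). Non-overlap of this kind in the lower direction was seen for 8.48% of all genes tested, and 3 of the 8 tested members showed it.

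Meox2, which overlaps in function with Meox1 and is a gene of later somites and limb muscle precursors (chr12:37108540-37179534, plus strand), was barely detected. It had 3, 2, 5 and 0 counts in the wildtype libraries and 1 and 13 counts in the Cdx2P:Nr6a1 libraries. It was below the filter, and without any filter its log2 fold change was 1.24 ± 0.84 (SE). The only library with more than 5 counts was Cdx2P:Nr6a1 replicate 2. The longest run shared by the coding sequences of Meox1 and Meox2 was 12 bases.

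Pax3, the paired-box factor of the dermomyotome that is also expressed in dorsal neural tube and neural crest (chr1:78101267-78197134, minus strand), was the member with the most counts. It was at 57.5, 60.8, 59.6 and 59.3 CPM in wildtype, the tightest of the 10 members with a coefficient of variation of 2.35%. In Cdx2P:Nr6a1 it was at 49.6 and 63.4 CPM, 1 value below and 1 above all wildtype libraries. The mean difference was small, with a log2 fold change of -0.07 ± 0.09 (SE), and it took the opposite sign (0.10) without Cdx2P:Nr6a1 replicate 1. The SD of Pax3 was 1.40 CPM (n = 4) in wildtype and 9.72 CPM (n = 2) in Cdx2P:Nr6a1.

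Myf5, the earliest of the myogenic determination factors to be expressed in the mouse embryo (chr10:107482908-107486134, minus strand), was close to the limit of detection. The wildtype libraries had 22, 21, 13 and 19 counts and the Cdx2P:Nr6a1 libraries 7 and 23. The groups overlapped, and Myf5 was below the filter. Without a filter its log2 fold change was -0.50 ± 0.43 (SE). At this depth a modest difference in Myf5 was not detectable, since the exact Poisson 95% interval for the library with 7 counts reached from 2.81 to 14.4.

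Eya1, a phosphatase and coactivator that works in muscle precursors (chr1:14168954-14310235, minus strand), was at 1.95, 2.15, 2.40 and 2.80 CPM in wildtype and at 2.29 and 4.82 CPM in Cdx2P:Nr6a1. Replicate 1 of Cdx2P:Nr6a1 sat among the wildtype libraries and replicate 2 was well above them. The log2 fold change of 0.63 ± 0.27 (SE) rested on that library, since it was -0.03 without Cdx2P:Nr6a1 replicate 2. Eya1 was not called in the fit used here and was called when no filter was applied to low counts.

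Cdx2P:Nr6a1 replicate 2, in which Eya1 and Meox2 were highest, also had a higher summed level of lateral plate and limb genes than the other 5 libraries. The summed level of a list of 9 such genes was 10.4 CPM in it, against 4.09 to 5.96 CPM in wildtype and 3.43 CPM in Cdx2P:Nr6a1 replicate 1. Tbx4, a hindlimb factor, had 113 counts in that library, 12 in the other transgenic library and 6 to 12 in wildtype. Prrx1, a limb mesenchyme factor, had 76 counts there, 18 in the other transgenic library and 7 to 13 in wildtype. Not every gene of the list was higher in that library. Fgf10 was at 0.863 CPM in it, below its wildtype range of 0.894 to 1.45 CPM. Pitx1 was at 2.32 CPM in it, within its wildtype range of 1.41 to 2.46 CPM. All 9 genes of that list had at least 10 counts in some library, but only Pitx1 passed the filter, with a log2 fold change of -0.29 ± 0.44 (SE). The part of these transcripts in the levels of Eya1 and Meox2 was not tested.

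Foxc1 and Foxc2, a pair of forkhead factors that act together in specifying paraxial mesoderm and in segmentation, had overlapping levels in the groups and were not called. Foxc1 (chr13:31806633-31812476, plus strand) was at 26.8, 27.2, 29.5 and 33.0 CPM in wildtype and at 25.6 and 29.5 CPM in Cdx2P:Nr6a1, with a log2 fold change of -0.09 ± 0.10 (SE). Foxc2 (chr8:121116171-121118895, plus strand) was at 5.88, 3.89, 6.46 and 5.43 CPM in wildtype and at 6.06 and 6.82 CPM in Cdx2P:Nr6a1, with a log2 fold change of 0.25 ± 0.18 (SE). For both genes the fold change was within 2 SE of 0. The fold change of Foxc1 was close to 0 and changed sign without Cdx2P:Nr6a1 replicate 1 (0.02).

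The Foxc genes shared the longest coding run of the 10 pairs of related genes compared, at 53 bases in the forkhead region. It is printed in capitals because a read that falls mostly inside it has few bases that tell the genes apart. It lies in exon 1 of Foxc1 (chr13:31807646-31807698, plus strand) and exon 1 of Foxc2 (chr8:121117032-121117084, plus strand).
Foxc1: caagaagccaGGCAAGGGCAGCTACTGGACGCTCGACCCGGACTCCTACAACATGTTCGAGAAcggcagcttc
Foxc2: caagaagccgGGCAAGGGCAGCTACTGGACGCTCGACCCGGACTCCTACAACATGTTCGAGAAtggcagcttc
The run was still shorter than the single-end reads used, so a full-length read reached past it on at least one side. For the other pairs the longest run was 12 to 26 bases. The exons of the members overlapped the exons of other genes at 0 bases.

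Levels per exon length set the members in a steep order in wildtype. On CPM per kilobase of exon (RPKM), Tcf15 was highest at 12.7 ± 1.53, followed by Pax3 at 9.59 ± 0.225, Meox1 at 7.01 ± 0.778 and Foxc1 at 4.99 ± 0.489 (SD, n = 4). Dmrt2 at 3.10 ± 0.711 and Foxc2 at 1.99 ± 0.404 came next. Sim2 at 0.749 ± 0.155 and Eya1 at 0.298 ± 0.0469 were lower again, and Myf5 at 0.177 ± 0.0461 and Meox2 at 0.0197 ± 0.0161 were lowest. The ranges of neighbours in this order overlapped for only 1 of 9 pairs, Dmrt2 and Foxc2, whose wildtype libraries spanned 2.23 to 3.87 and 1.43 to 2.37 RPKM. In the Cdx2P:Nr6a1 libraries Dmrt2 was at 0.764 and 1.31 RPKM, below Foxc2 at 2.223 and 2.502 RPKM. Sim2 was at 0.0968 and 0.0987 RPKM there, below Eya1 at 0.294 and 0.618 RPKM and within the range of Myf5 at 0.0763 and 0.164 RPKM.

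**Figure D2:**
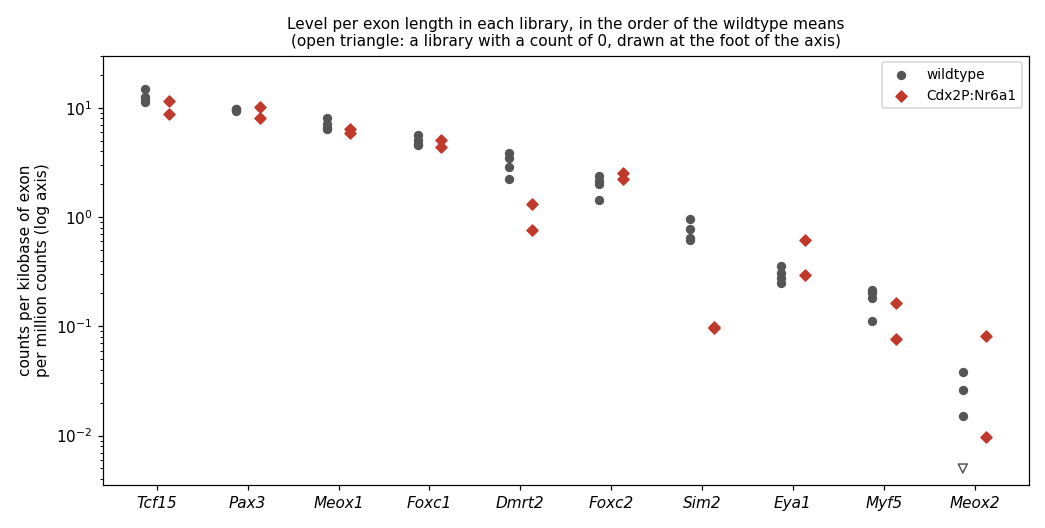
Level per exon length (vertical axis, log scale, in CPM per kilobase of exon) of each of the 10 regulators, in the order of the wildtype means, with 4 wildtype libraries (grey circles) and 2 Cdx2P:Nr6a1 libraries (red diamonds). Most genes have the groups side by side, while Dmrt2 and Sim2 step down below the wildtype points. The open triangle is the wildtype library with 0 counts of Meox2.

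Ratios of counts within a library do not depend on its total or on its normalization, and they set Dmrt2 and Sim2 against genes of the same lineage. In the wildtype libraries the count of Dmrt2 was 82.6%, 65.5%, 43.4% and 46.3% of that of Tcf15, and in the Cdx2P:Nr6a1 libraries it was 15.8% and 36.1%. Against Meox1 the count of Dmrt2 was 63.8%, 55.4%, 28.9% and 43.0% in wildtype and 12.6% and 23.4% in Cdx2P:Nr6a1. For Sim2 the share of the Pax3 count was 7.04%, 5.36%, 4.59% and 4.39% in wildtype and 0.823% and 0.658% in Cdx2P:Nr6a1. All 3 ratios were lower in both transgenic libraries than in any wildtype library. Dmrt2 and Sim2 were selected on this contrast, so these ratios restate their lower counts and lend them no support. In contrast the count of Tcf15 was 66.7% to 92.9% of that of Meox1 in wildtype and 80.2% and 65.0% in Cdx2P:Nr6a1, which is nearly the same span. The count of Foxc2 was 14.3% to 21.9% of that of Foxc1 in wildtype and 23.7% and 23.1% in Cdx2P:Nr6a1. For this ratio, too, the groups did not overlap, with both transgenic libraries above every wildtype library.

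Over the 6 libraries, the log2 CPM of Dmrt2 and Sim2 followed each other with a Pearson r of 0.94, a value that the difference between the groups largely sets. The other genes that passed the filter and followed Dmrt2 most closely were Pard6g, which encodes a cell polarity protein (r of 0.997), Tenm4, which encodes a teneurin (0.995), and Nfatc1, which encodes a calcium-regulated transcription factor (0.992). Their own differences were far smaller, with log2 fold changes of -0.12, -0.34 and -0.46, and of the 3 only Tenm4 was called. Those closest to Tcf15 were 0610012G03Rik (0.991), Rsrc1 (0.979) and Emc6 (0.975), none of which was called. These correlations are descriptions over 6 points in 2 groups, picked as the highest of 12733 genes.

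Other genes of somite formation and of neighbouring tissues were followed in 9 lists of 108 genes. Of these, 59 passed the filter and 3 were called, against 1.59% of all genes tested. Of the 3, 2 were higher and 1 was lower in Cdx2P:Nr6a1.

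Among genes of the dermomyotome and muscle, 9 of 18 passed the filter and 0 were called by the quasi-likelihood test or limma voom. DESeq2 and the 2 other tests of edgeR each called 1, and 2 had an unadjusted p under 0.05. Their median log2 fold change was 0.045. The most abundant were Dact1, a Wnt pathway modulator, at 47.6 ± 5.93 CPM (SD, n = 4) in wildtype and 56.5 and 78.1 CPM in Cdx2P:Nr6a1, and Six4, a homeobox factor, at 48.1 ± 3.98 and 49.0 and 49.6 CPM. Of the sclerotome list 7 of 13 passed and 1 was called, with a median of 0.24. Its most abundant genes were Pdgfra, which encodes a growth factor receptor, and Jag1, which encodes a Notch ligand, with log2 fold changes of 0.00 ± 0.09 and 0.28 ± 0.06 (SE). Of the segment boundary list 8 of 13 passed and 0 were called by the quasi-likelihood test or limma voom, with a median of -0.135. DESeq2 and the 2 other tests of edgeR each called 1, and 3 had an unadjusted p under 0.05. Dll1, a Notch ligand gene, was at 303 ± 42.5 CPM (SD, n = 4) in wildtype and at 327 and 300 CPM in Cdx2P:Nr6a1, and Epha4, a receptor gene of the boundary, at 301 ± 25.5 and at 247 and 285 CPM. Of the paralogs and binding partners 12 of 18 passed and 0 were called by the tests of edgeR or by limma voom, with a median of 0.004. DESeq2 called 2, and 3 had an unadjusted p under 0.05. Tcf3 and Tcf12, which encode general partners of bHLH factors such as Tcf15 and Myf5, had log2 fold changes of -0.04 ± 0.06 and 0.04 ± 0.05 (SE).

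Pax3 and several other members are also expressed outside the somite, and so the marker lists of those tissues are given beside them. Of the dorsal neural tube and crest list, whose cells also express Pax3, 9 of 12 passed and 0 were called by the quasi-likelihood test or limma voom, against 2 by DESeq2 and by each of the other tests of edgeR and 2 at an unadjusted p under 0.05. Its summed level was 198 to 226 CPM in wildtype and 222 and 211 CPM in Cdx2P:Nr6a1. Its most abundant genes over the 6 libraries, the homeobox gene Msx1 and the zinc-finger gene Zic2, had log2 fold changes of -0.03 ± 0.08 and 0.28 ± 0.06 (SE). Wnt1 and Foxd3 of this list had at most 2 counts in any library, whereas Lmx1a, a roof plate gene, had 833 to 914 counts in wildtype and 720 and 956 in Cdx2P:Nr6a1. Of the neural tube list 3 of 10 passed and 2 were called higher. These were the neural progenitor genes Sox1, with a log2 fold change of 1.77 ± 0.25 (SE), and Sox3, with 1.26 ± 0.16 (SE). The lists were chosen with earlier results of these data known, so no p is given for these 2 genes. Sox1 passed the filter through its Cdx2P:Nr6a1 libraries alone, as it was at most at 1.42 CPM in wildtype. Both were higher in 2 of 2 transgenic libraries than in every wildtype library. Over the alternatives the log2 fold change ran from 1.64 to 1.87 for Sox1 and from 0.996 to 1.47 for Sox3. Sox3 lost its call when Cdx2P:Nr6a1 replicate 2 was left out, and Sox1 failed the filter when either transgenic library was left out. Sox2, the most abundant of the list, had a log2 fold change of 0.17 ± 0.10 (SE). The summed level of the neural tube list was 32.2 to 39.7 CPM in wildtype and 45.4 and 58.0 CPM in Cdx2P:Nr6a1, and Olig2 of this list had 0 counts in all 6 libraries. The part of these cells in the levels of the members was not tested. Of the endothelium list, a tissue in which Foxc2 is expressed, all 9 genes passed and 0 were called by any of these tools or had an unadjusted p under 0.05, and its summed level was 235 to 276 CPM in wildtype and 229 and 298 CPM in Cdx2P:Nr6a1. The most abundant of these, Cdh5 and Kdr, had log2 fold changes of 0.10 ± 0.10 and -0.09 ± 0.12 (SE). Of the intermediate mesoderm list only Pax2 of 6 genes passed, at a log2 fold change of 0.46 ± 0.10 (SE), which the quasi-likelihood test did not call while DESeq2, limma voom and the other tests of edgeR did.

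**Figure D3:**
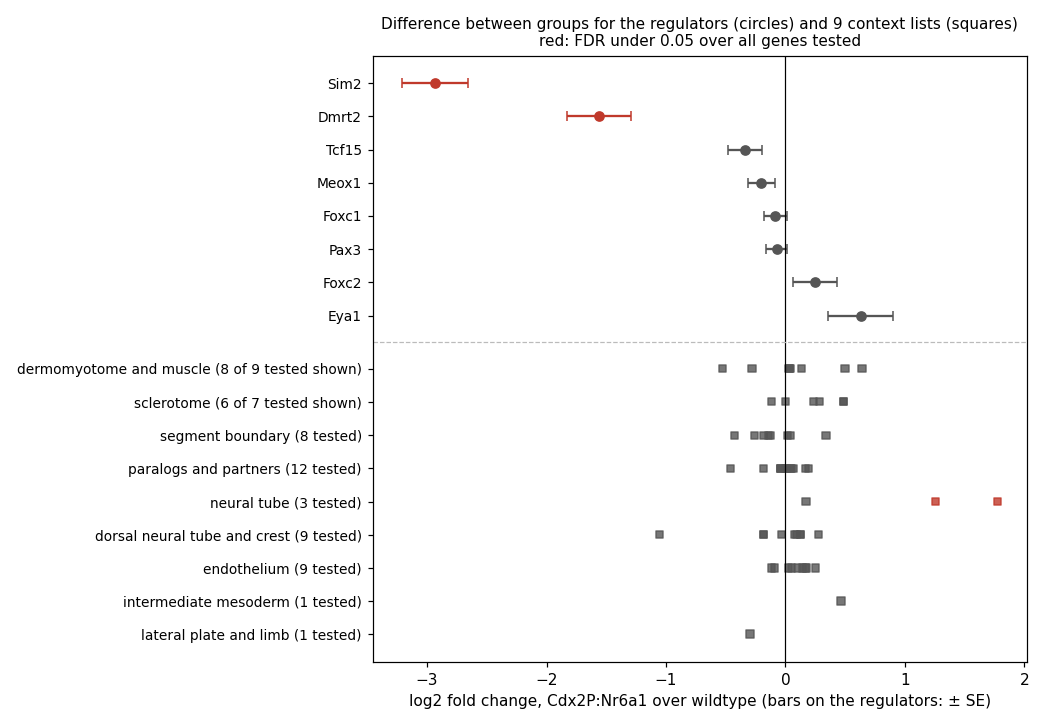
Log2 fold change of Cdx2P:Nr6a1 over wildtype (horizontal axis) for the 8 tested regulators (circles, bars of ± SE) and for the tested genes of the 9 other lists (squares, less 1 gene each of the dermomyotome and sclerotome lists), with genes called at an FDR under 0.05 in red. Sim2 at -2.93 and Dmrt2 at -1.56 stand apart to the left, and of the listed genes shown Sox1 and Sox3 are called higher.

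The fold changes were recomputed under 17 alternatives that changed the test, the normalization, the filter, the covariates or the libraries. Since the members were selected on this contrast, the ranges describe how far a value depends on the setting and lend it no support. Sim2 had log2 fold changes from -3.12 to -2.80 and was past the FDR threshold under all 17. Dmrt2 was lower under all 17, from -2.03 to -1.24, and was called under 13 of them. It was not called with Y-linked expression as a covariate (-1.52), without wildtype replicate 4 (-1.61), or without either transgenic library (-1.24 with replicate 1 left out and -2.03 with replicate 2 left out). Meox1 and Tcf15 were below 0 and Foxc2 above 0 under all 17, and these 3 genes were called under none. Pax3, Foxc1 and Eya1 changed sign when a single library was left out or, for Foxc1, with the replicate number as a block, and of these 3 only Eya1 was called, under 1 alternative.

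**Figure D4:**
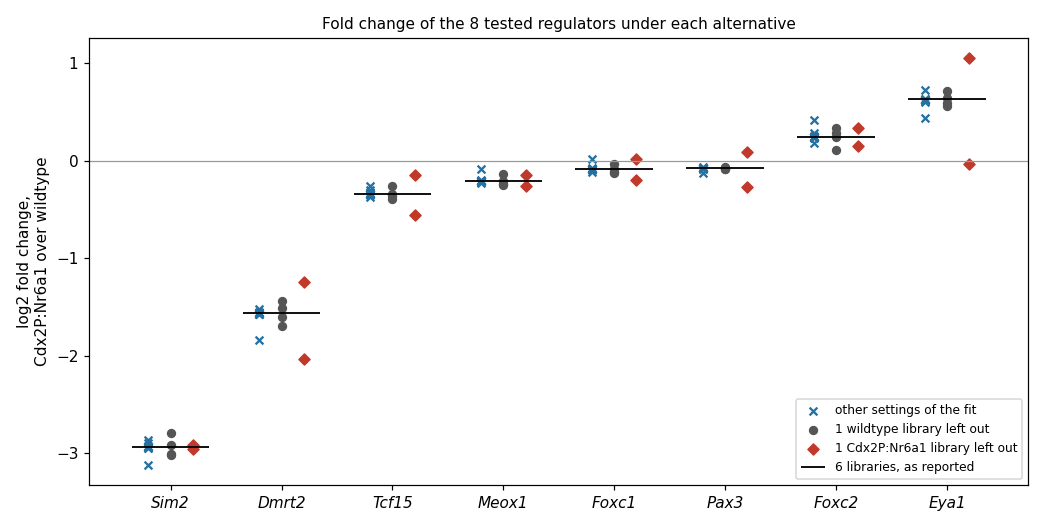
Log2 fold change of Cdx2P:Nr6a1 over wildtype (vertical axis) for the 8 tested regulators with all 6 libraries (black line), with other settings of the fit (blue crosses), with 1 wildtype library left out (grey circles) and with 1 Cdx2P:Nr6a1 library left out (red diamonds). Sim2 stays near -2.93 throughout, Dmrt2 moves between -2.03 and -1.24 with the transgenic library that is left out, and Eya1 drops to -0.03 without Cdx2P:Nr6a1 replicate 2.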

How the data were processed

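PolyA-selected RNA of 1 embryo per library was prepared with a stranded kit. The authors aligned reads with STAR to mm10, per the labels, and deposited raw counts per gene for 54134 genes with exon coordinates and length. The counting program and its use of strand are not given in the sources used here. A deposited table of the authors' own edgeR comparison (fold changes, p-values, FDR and CPM of selected genes) was not used.

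CPM was computed from column totals and RPKM from the deposited exon length. Groups followed the genotype labels, and no library was left out. Genes that had over 10 counts and over 2 CPM in 2 libraries were tested in R 4.3.3 with edgeR 4.0.16 (TMM, quasi-likelihood test, no covariates, FDR under 0.05), checked on simulated data. SE is the fold change divided by the root of F. Alternatives used edgeR's other tests, DESeq2 1.42.0, limma 3.58.1 (voom), other scalings and filters, a replicate block, a Y-linked covariate and each library left out. With 1 transgenic library left, it is assumed to vary like the wildtype libraries. Plots used Python 3.11.15 and matplotlib 3.10.9.

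The members and lists were chosen with earlier results of these data known. Genes named beside the members were Nr6a1, the called genes (up to 3 per list and direction) and the 2 most abundant tested genes of each list, and the 3 genes closest to Dmrt2 and to Tcf15. Other genes, among them Tbx6, Msgn1, Lfng, Pax9, Tbx4, Prrx1, Fgf10, Hlcs, Lmx1a and the markers near 0, were named after their values were seen. Some listed genes are not reported here. Coordinates of 9 of the 10 members equal those of GENCODE M21, and those of Dmrt2 differ slightly. Sequences came from GENCODE M21 transcripts and RefSeq.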

Additional observations from a re-analysis of the deposited data

How the results depend on the processing

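The count of genes called was 203 and became 401 with the likelihood ratio test, 391 with the exact test, 477 with DESeq2, 876 without a filter on low counts and 61 to 175 with 1 library left out (134 without wildtype replicate 4, 61 without either transgenic library). Of the members, 2 were called, against 1 with the Y-linked covariate and 1 to 2 with 1 library left out (1 without wildtype replicate 4 or either transgenic library). In the 9 lists 3 genes were called, against 10 with the likelihood ratio test, 10 with the exact test, 12 with DESeq2, 5 with limma voom, 20 without a filter and 0 to 5 with 1 library left out (5 without wildtype replicate 3, 1 and 0 without transgenic replicates 1 and 2). With the replicate block, 442 genes and 12 list genes were called and the median of the members was -0.084 in place of -0.144. The labels' replicate numbers are only names here: samples of the same number deviated from their group means with correlations of 0.204 and -0.215. With 1 library left out, signs changed for Pax3 (from -0.2688 to 0.0954, the last without transgenic replicate 1), Foxc1 (from -0.2 to 0.018, the last without transgenic replicate 1, and 0.0174 with the replicate block) and Eya1 (from -0.0293 without transgenic replicate 2 to 1.0548). The cause was not tested, beyond the smaller number of samples or genes that these settings leave. The order of wildtype levels was the same for 10 of 10 members with any wildtype library left out and for 7 of 10 by CPM. With only 2 transgenic embryos, the difference of Eya1 and the sign of Pax3 rest on single libraries. Myf5 and Meox2 were left out by the filter and were fitted only without it, with wide errors.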
